A study of Musa balbisiana with 10 samples.

Results

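By their group means, 188 genome regions gave less RNA in ethylene-treated than in control banana pulp on day 1 of ripening and more on day 7. The fruit was Klutuk Wulung, a banana of the BB Group (Musa balbisiana Colla). The 10 libraries of pulp RNA fell into 4 groups. E1 was fruit exposed to 100 µl/L ethylene gas in a glass container and sampled on day 1 (libraries A and C), and K1 was control fruit without ethylene on day 1 (A and B). E7 and K7 were the ethylene-treated and the control fruit on day 7 (A, B and C in each). All fruit was of this 1 cultivar and was chosen for like skin colour, age and size, and the ethylene-treated fruit was stored at room temperature after the exposure. The study calls the libraries biological replicates, and whether each came from a separate fruit is not given in the sources used here, so the spread between libraries may be technical in part.

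The members were chosen by measured values, the differences E1 minus K1 and E7 minus K7. Loci of at least 300 bp in the 10 expression tables were pooled, overlapping loci were merged into regions, and the FPKM of the loci in a region was added up in each library. Positions are given in the DH PKW genome, that of a doubled haploid Pisang Klutuk Wulung, as the tables list them. FPKM is the number of sequenced fragments of a transcript, scaled for its length and for the size of the library. Of 30802 regions, 27929 had a locus in every table and 16821 of these had a mean FPKM of at least 1. A region was a member where the mean of log2(FPKM + 1) in E1 was at least 0.5 below that in K1, and the mean in E7 at least 0.5 above that in K7. The 188 members were 1.12% of the 16821 regions, 2.91% of the 6463 regions that met the first condition and 7.90% of the 2381 that met the second. The mirror pattern, higher in E1 than in K1 and lower in E7 than in K7 by the same thresholds, was met by 105 regions.

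Banana is a climacteric fruit, in which ripening is accompanied by a burst of ethylene and of respiration, and in which ethylene gas applied after harvest starts ripening early. Ethylene binds receptors in the endoplasmic reticulum membrane, which relieves a block on transcription factors of the EIN3 family, and these in turn switch on ethylene response factors and ripening genes. In the pulp, starch is turned into sugars and the cell wall is loosened while this proceeds. The identifiers of the members carry no product names in the sources used here, so the members are given by identifier and position and no role is assigned to any of them. For the same reason the tissue was not checked against marker genes.

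The tables listed 43558 to 53992 loci each, and the confidence bounds of the loci implied 11659670 to 14194186 fragments per library, an estimate made from the values. The totals per library that the study gives with its mapping results are well above these. The estimate is thus not the sequencing depth, and fragment numbers of members made in this way are rough. Libraries K1 A, K7 A and E7 A were sequenced from 1 end and the other 7 from both ends. Over all 16821 regions the median of E1 minus K1 was -0.24 and that of E7 minus K7 was -0.11 on the log2(FPKM + 1) scale. These medians of all regions were on the side of lower values with ethylene on both days.

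The median over the members of the group mean was 2.66 FPKM in E1 against 7.53 FPKM in K1, and 7.20 FPKM in E7 against 3.57 FPKM in K7. Library by library, the median log2(FPKM + 1) of the 188 members was 1.82 and 1.88 in E1, against 3.07 and 3.09 in K1. On day 7 it was 3.21, 2.90 and 2.80 in E7 A, B and C, against 2.12, 2.14 and 2.1 in K7 A, B and C. The libraries of a group lay close together and the groups did not overlap in this median on either day, which the rule of choice makes likely by itself. The median of all 16821 regions moved far less, with 3.08 and 3.12 in E1, 3.35 and 3.25 in K1, 3.41, 3.12 and 3.14 in E7 and 3.38, 3.24 and 3.19 in K7.

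The day 1 differences were the larger by their medians. E1 minus K1 ran from -5.02 to -0.50 on the log2 scale with a median of -0.97, with quartiles of -1.50 and -0.68. E7 minus K7 ran from 0.50 to 3.82 with a median of 0.72 and quartiles of 0.59 and 0.98. Many members sat close to the day 7 threshold, and 27 members reached both -1 on day 1 and 1 on day 7. The distance between both effects, (E7 minus K7) minus (E1 minus K1), had a median of 1.83 and a highest value of 8.84.

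**Figure D1:**
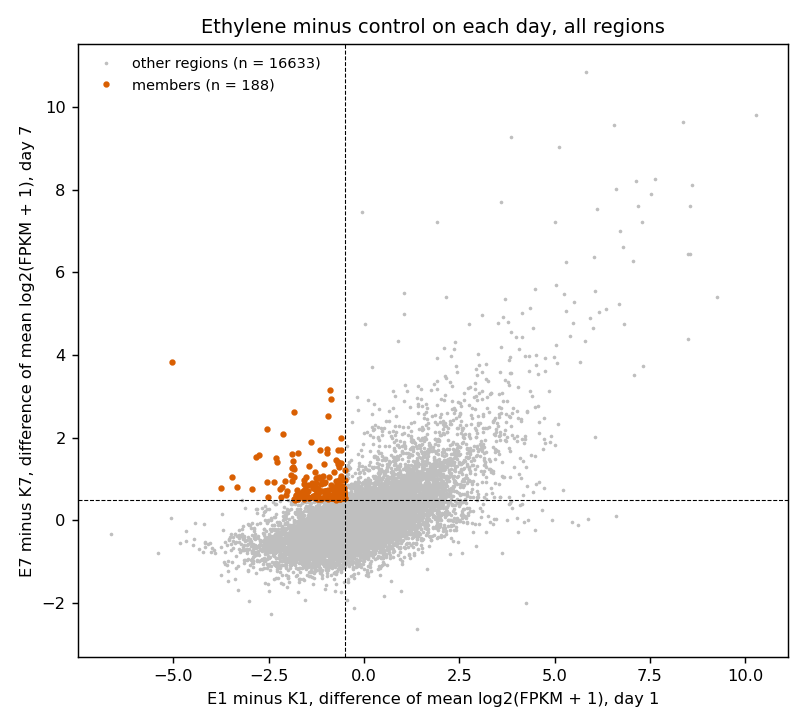
E1 minus K1 (horizontal axis) and E7 minus K7 (vertical axis) in log2(FPKM + 1) for all 16821 regions, with the 188 members and the thresholds of -0.5 and 0.5 drawn. The members fill the upper left corner, from -5.02 to -0.50 on day 1 and from 0.50 to 3.82 on day 7, and crowd near the day 7 threshold.

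These differences chose the members, so counts of calls on them are given as a description and nothing is read from them. By limma at an adjusted p of 0.05 over all regions, 86 of the 188 members (45.7%) were called lower in E1 than in K1, beside 24.8% of all regions. On day 7, 57 members (30.3%) were called higher in E7 than in K7, beside 8.75% of all regions. Both calls were made for 39 members, which were the 0.232% of all regions called in both. The difference between both effects was called for 109 members (58.0%), beside 8.31% of all regions. Without E7 B, 37 of the 281 members then found were called on day 7, beside 6.73% of all regions. Leaving 1 library in E1, by taking out E1 A or E1 C, lowered the calls on day 1 and for the difference, among members and all regions alike. Members other than the 39 met the thresholds on group means without passing the test on at least 1 day, so "lower" and "higher" describe their means.

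The single libraries separated in more members than the test called. In 161 members (85.6%) both E1 libraries lay below both K1 libraries, as they did in 44.8% of all regions. In 109 members (58.0%) all E7 libraries lay above all K7 libraries, as in 15.6% of all regions. No library overlapped on either day in 98 members (52.1%), beside 1.26% of all regions. In the other 90 members the libraries overlapped on at least 1 day. The place of every member in the group rests on means of 2 or 3 values. The rule used these same values and so favours a lack of overlap, and the shares are a description.

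Between the days, the members followed 3 courses. The rule sets no threshold between days, but a group low on day 1 and high on day 7 against its control is tilted towards a rise in ethylene-treated fruit and a drop in control fruit, so these contrasts are described too. In 100 members (53.2%) the mean was at least 0.5 higher in E7 than in E1 and at least 0.5 lower in K7 than in K1. Their median group means were 2.27 FPKM in E1, 9.50 FPKM in K1, 7.32 FPKM in E7 and 3.61 FPKM in K7. Both kinds of fruit took part in this course, moving in opposite directions.

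In 50 members (26.6%) E7 was at least 0.5 above E1 while K7 was not that far below K1. The medians of these were 2.00 FPKM in E1, 4.58 FPKM in K1, 6.81 FPKM in E7 and 3.57 FPKM in K7. The rule and the limits of this course place E7 above K1 in all 50, and the median E7 minus K1 was 0.41. In the remaining 38 members (20.2%) E7 was less than 0.5 above E1 and K7 was at least 0.5 below K1, with medians of 6.70 FPKM in E1, 12.6 FPKM in K1, 6.19 FPKM in E7 and 3.52 FPKM in K7. In these 38 the means of ethylene-treated fruit on the 2 days had a median difference, E7 minus E1, of 0.26, and the median K7 minus K1 was -1.37.

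**Figure D2:**
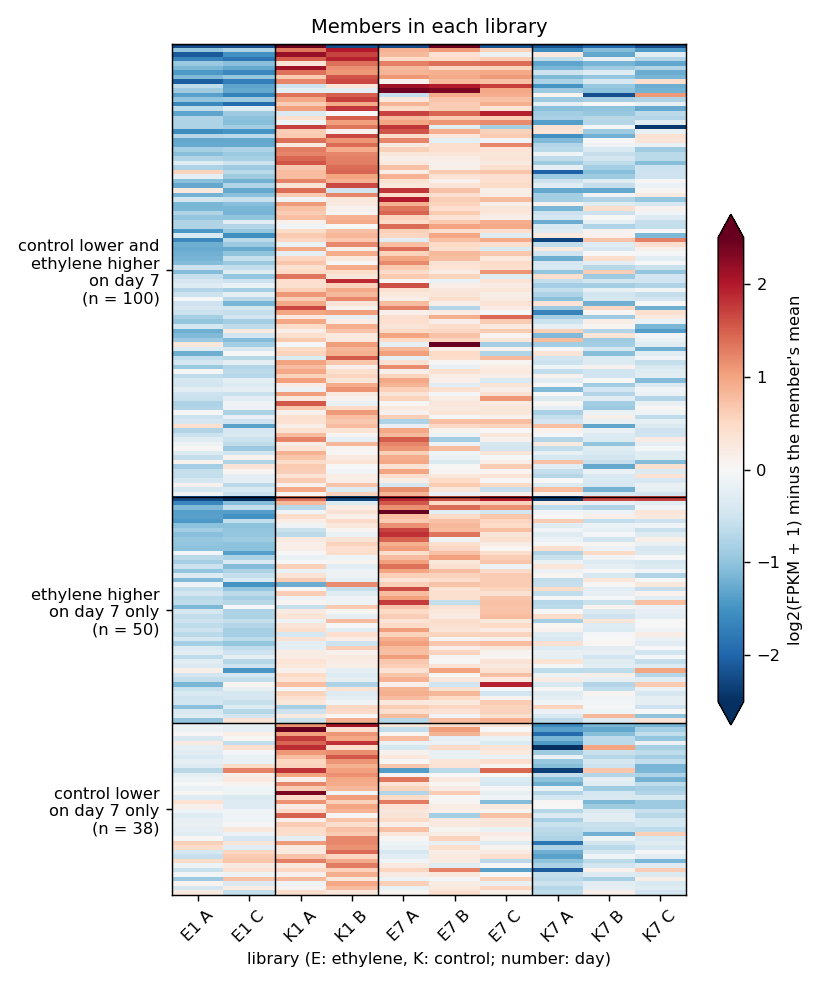
Heat map of the 188 members (rows, grouped by the 3 courses) in the 10 libraries (columns, ethylene-treated fruit left of control fruit on each day); colour is log2(FPKM + 1) minus the mean of that member, red for higher. The 100 members at the top are low in E1 and K7 and high in K1 and E7, the next 50 stand out by E7 against E1, and the 38 at the bottom by K1 against K7.

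Over all 188 members E7 minus E1 had a median of 1.00 and K7 minus K1 a median of -0.92, beside 0.11 and -0.02 over all regions. By limma 85 members (45.2%) were called higher in E7 than in E1, beside 14.3% of all regions, and 0 were called lower, beside 11% of all regions, with 1 member lower at an unadjusted p under 0.05. In control fruit 40 members (21.3%) were called lower in K7 than in K1, beside 1.05% of all regions, and 0 were called higher, beside 0.262%, also at an unadjusted p under 0.05. Leaving 1 library in E1 lowered the calls of E7 over E1, among members and all regions alike. Leaving 1 library in K1, also in the paired-end libraries alone, lowered the calls of K7 under K1 in the same way. All E7 libraries lay above both E1 libraries in 137 members (72.9%; 33.4% of all regions), and all K7 libraries lay below both K1 libraries in 116 (61.7%; 14.4% of all regions). Of the 176 regions called lower in K7 than in K1 over the whole table, 40 were members.

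C4D60_Mb04t27270 (chromosome 4, 33298169 to 33301651) was the 1 member whose control mean was at least 0.5 higher on day 7. It had 1.09 and 0 FPKM in E1 A and C against 24.9 and 0.994 FPKM in K1 A and B, and 35.7, 29.4 and 37.1 FPKM in E7 A, B and C against 0.879, 29.7 and 31.3 FPKM in K7 A, B and C. Its libraries stood either near 30 FPKM or near 1 FPKM, so that its E1 minus K1 of -2.31 (SE 1.38) came mostly from K1 A and most of its E7 minus K7 of 1.5 (SE 1.12) from K7 A, and both are single-end libraries. Mba08_g09600.v1.1 and C4D60_Mb05t23190 were the 2 members with an E7 mean at least 0.5 below that of E1 (-0.66 and -0.75).

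**Figure D3:**
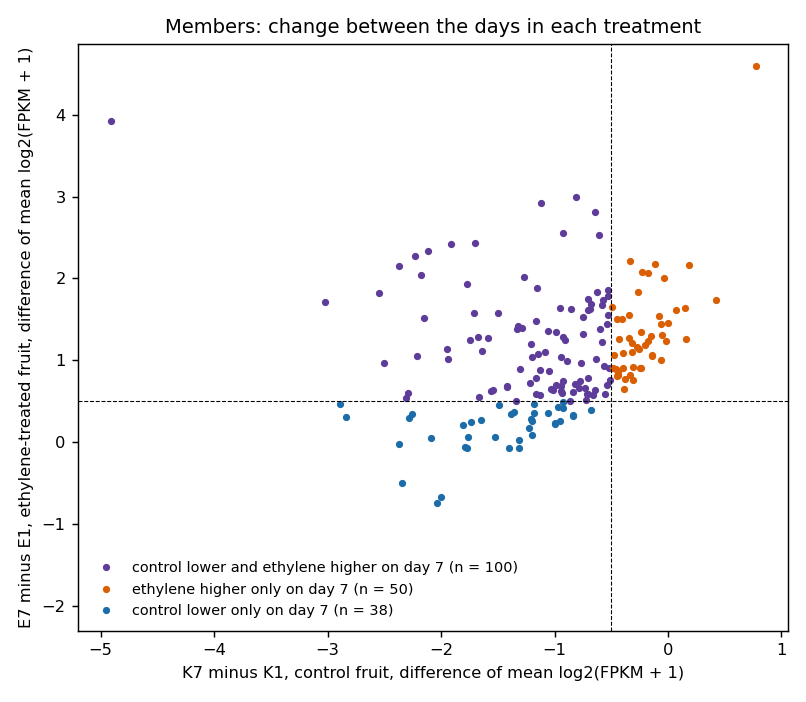
E7 minus E1 (ethylene-treated fruit) and K7 minus K1 (control fruit) in log2(FPKM + 1) for the 188 members, coloured by the 3 courses. The 100 members of the largest course lie above 0.5 in ethylene-treated fruit and below -0.5 in control fruit, the 50 members lie right of the vertical line and the 38 members under the horizontal line.

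The 4 group means can stand in 6 orders that satisfy the rule, and the members used all 6. The order E7 > K1 > K7 > E1 held for 61 members (32.4%), K1 > E7 > K7 > E1 for 53 (28.2%) and K1 > E7 > E1 > K7 for 49 (26.1%). The control of day 1 was the highest group in 110 members and the ethylene-treated fruit of day 7 in 78 (41.5%). E7 was above K1 in 40.5% of all regions, a share close to that of the members. E1 was the lowest group in 120 members (63.8%, with E1 below K7 in 58.8% of all regions) and K7 in 68. The median E7 minus K1 was -0.16, with members from -1.85 to 2.28, and the median E1 minus K7 was -0.15, with members from -3.09 to 1.52. Over all regions these medians were much the same, -0.13 and -0.20.

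The 12 members with the largest distance between both effects, among the 98 without overlap, are described by library. All 12 belong to the course in which both kinds of fruit moved. C4D60_Mb03t01890 (the locus tag of the RefSeq gene model at this place; chromosome 3, 1480928 to 1484109) had 3.01 and 3.58 FPKM in E1 A and C against 18.6 and 30.6 FPKM in K1 A and B. On day 7 it had 13.3, 15.5 and 10.8 FPKM in E7 A, B and C against 1.63, 2.70 and 1.95 FPKM in K7 A, B and C. The level in control fruit of day 1 was the highest and that in control fruit of day 7 the lowest, with E1 minus K1 at -2.54 (SE 0.289) and E7 minus K7 at 2.2 (SE 0.236).

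5 of the 12 held 1 locus in every table. Among these, Mba07_g18990.v1.1 (chromosome 7, 29876008 to 29876754) was listed in all 10 tables with the same coordinates, 747 bp long. It had 0.785 and 0.633 FPKM in E1 against 3.27 and 7.72 FPKM in K1, and 7.13, 7.80 and 7.92 FPKM in E7 against 0.352, 0.517 and 0.365 FPKM in K7. It was under 1 FPKM in all 5 libraries of E1 and K7 and above 3 FPKM in the other 5, with E1 minus K1 at -1.84 (SE 0.301) and E7 minus K7 at 2.61 (SE 0.246). No annotated identifier was listed in the region on chromosome 7 from 9144089 to 9147317. RefSeq gene models could not be matched on that chromosome, so whether the region holds a gene was not checked. This region had 5.61 and 5.07 FPKM in E1 against 59.0 and 79.0 FPKM in K1. On day 7 it had 28.3, 28.7 and 32.0 FPKM in E7 against 12.5, 17.7 and 11.7 FPKM in K7. Its day 1 difference of -3.45 (SE 0.231) was the largest of the 12, its day 7 difference was 1.05 (SE 0.188), and the confidence bounds that the tables give for each library (4.51 to 6.28 FPKM in E1 against 56.7 to 82.2 FPKM in K1, and 26.5 to 33.8 FPKM in E7 against 10.8 to 19.0 FPKM in K7) did not overlap on either day.

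Another 3 regions, all at low levels, were close to 0 in both E1 libraries. Mba03_g21700.v1.1 (chromosome 3, 29731065 to 29732709) had 0.250 and 0.0999 FPKM in E1 against 7.57 and 6.16 FPKM in K1, and 5.05, 5.22 and 5.53 FPKM in E7 against 1.37, 1.70 and 0.423 FPKM in K7. Mba11_g19250.v1.1 (chromosome 11, 25696203 to 25698055) had 0.0762 and 0.135 FPKM in E1 against 3.09 and 5.96 FPKM in K1, and 1.59, 2.44 and 2.55 FPKM in E7 against 0.132, 0.200 and 0.266 FPKM in K7. Mba03_g17290.v1.1 (chromosome 3, 25584552 to 25586169) had 0.348 and 0.213 FPKM in E1 against 11.8 and 5.46 FPKM in K1, and 4.10, 3.18 and 3.30 FPKM in E7 against 0.334, 0.572 and 0.773 FPKM in K7. Their E1 minus K1 was -2.74 (SE 0.296), -2.27 (SE 0.271) and -2.83 (SE 0.310) in this order, and their E7 minus K7 was 1.59 (SE 0.241), 1.40 (SE 0.221) and 1.54 (SE 0.253). In K1 A, 8.41 of the 11.8 FPKM of Mba03_g17290.v1.1 came from a short extra locus at 25584887 to 25585266, and the main locus had 3.35 FPKM there, still above E1.

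In a further 2 regions, treated fruit of day 7 stood near the control of day 1. Mba07_g05690.v1.1 (chromosome 7, 4784431 to 4804210) had 9.95 and 11.2 FPKM in E1 against 35.7 and 68.4 FPKM in K1, and 48.7, 43.4 and 48.2 FPKM in E7 against 9.94, 11 and 9.55 FPKM in K7, with differences of -2.13 (SE 0.266) and 2.1 (SE 0.217). E1 and K7 were alike in this region, near 10 FPKM. It sums 2 to 5 loci per table, and the 1 locus with the same coordinates in every table (4784500 to 4785216) gave differences of -2.09 and 2.60, while the strongest loci of the tables shared no common stretch. Mba01_g14120.v1.1 (chromosome 1, 10476223 to 10481727) had 2.13 and 1.52 FPKM in E1 against 13.7 and 17.3 FPKM in K1, and 16.2, 13.8 and 16.6 FPKM in E7 against 7.11, 8.44 and 7.38 FPKM in K7, with differences of -2.54 (SE 0.218) and 0.94 (SE 0.178). The annotated identifier itself was close to 0 there, and assembled loci beginning between 10476223 and 10476307 carried most of the sum in every library.

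Mba08_g11240.v1.1 (chromosome 8, 9266436 to 9273385) had its largest step in control fruit. It had 5.17 and 6.72 FPKM in E1 against 18.5 and 31.7 FPKM in K1, and 12.6, 13.9 and 11.2 FPKM in E7 against 3.63, 3.76 and 3.00 FPKM in K7, with differences of -1.87 (SE 0.269) and 1.60 (SE 0.220). Only 1 of the 2 loci listed with the same coordinates in every table followed the region on both days. The shorter, 9266487 to 9267119, had 8.96, 10.9 and 8.16 FPKM in E7 and was listed at 0 in all 3 K7 libraries, with an E1 minus K1 of -1.78. The longer, 9266436 to 9273385, had 2.06, 2.35 and 2.23 FPKM in E7 against 2.33, 3.23 and 2.06 FPKM in K7, with an E7 minus K7 of -0.13 and an E1 minus K1 of -1.96, so the day 7 difference of the region did not extend to it.

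In Mba04_g13110.v1.1 and Mba07_g17940.v1.1 the day 7 difference was the larger. Mba04_g13110.v1.1 (chromosome 4, 10461286 to 10466574) had 1.11 and 0.315 FPKM in E1 against 1.31 and 3.06 FPKM in K1, and 13.2, 11.9 and 9.87 FPKM in E7 against 0.175, 0.704 and 0.405 FPKM in K7. Mba07_g17940.v1.1 (chromosome 7, 28894387 to 28898565) had 0.384 and 0.833 FPKM in E1 against 1.68 and 2.43 FPKM in K1, and 10.1, 8.50 and 12 FPKM in E7 against 0.885, 0.785 and 1.18 FPKM in K7. Treated fruit of day 7 was far above the other 3 groups in both, with E7 minus K7 at 3.16 (SE 0.275) and 2.52 (SE 0.206) and E1 minus K1 at -0.88 (SE 0.336) and -0.93 (SE 0.252). By limma the day 1 difference was called in Mba07_g17940.v1.1 and not in Mba04_g13110.v1.1. In Mba04_g13110.v1.1 the confidence bounds of E1 A (0.689 to 1.53 FPKM) overlapped those of K1 A (1.06 to 1.55 FPKM).

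The region of Mba04_g29640.v1.1 (chromosome 4, 35304677 to 35332503, 27827 bp) joins several loci and does not describe 1 transcript. It had 3.87 and 2.69 FPKM in E1 against 6.72 and 6.61 FPKM in K1, and 47.3, 44.7 and 16.4 FPKM in E7 against 3.79, 3.41 and 2.97 FPKM in K7. Most of the E7 sum came from an assembled locus starting at 35304677 that was listed in the E7 libraries alone, at 43.3, 38.9 and 11.5 FPKM, while Mba04_g29640.v1.1 itself was at 0 in every library. The day 1 and the day 7 difference of this region (-0.85, SE 0.427, and 2.94, SE 0.349) therefore come from different loci.

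**Figure D4:**
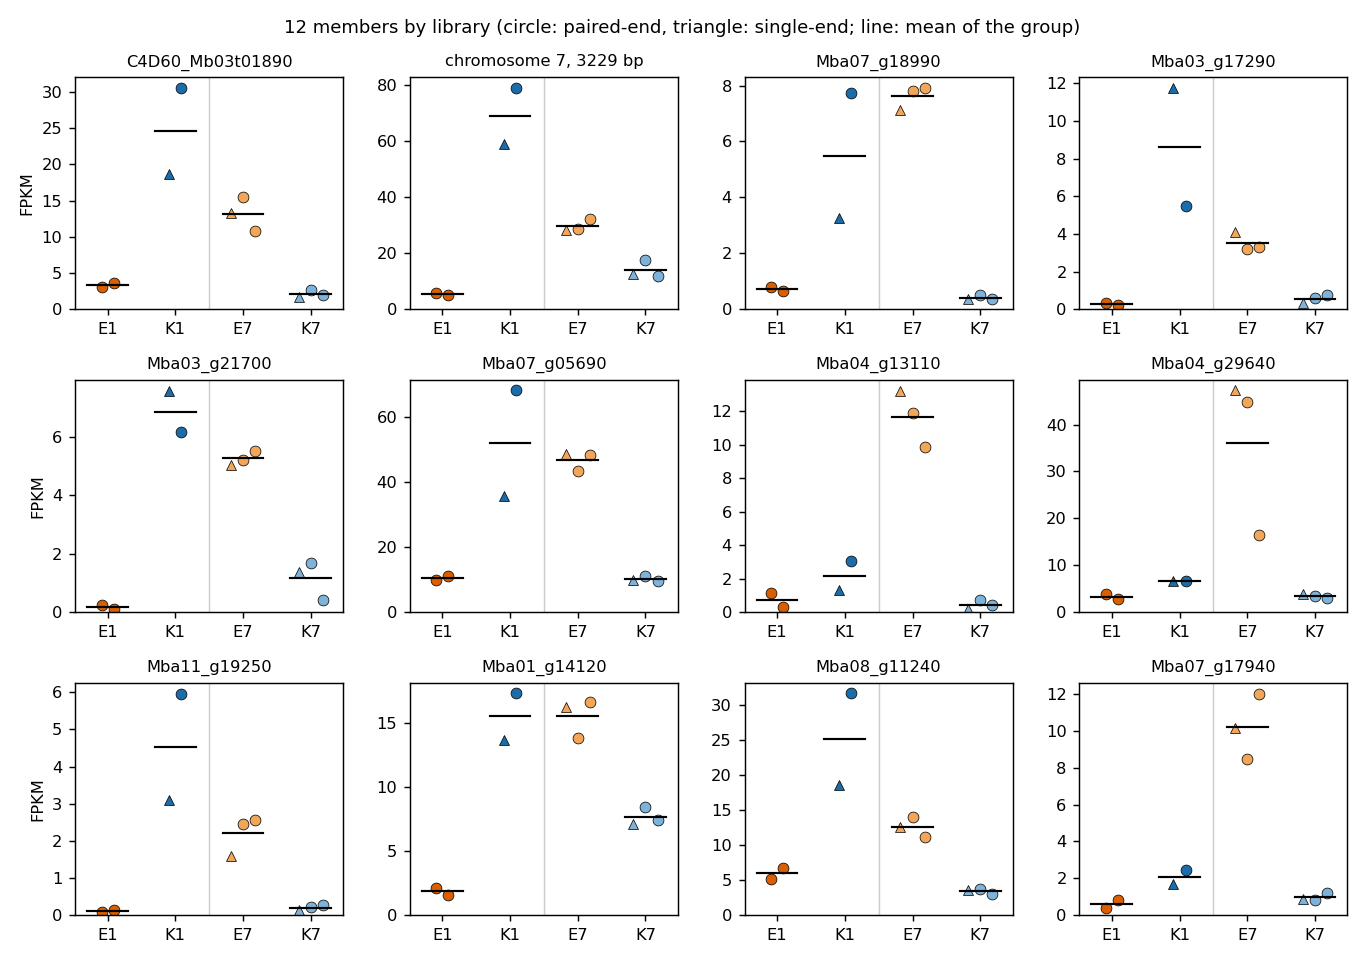
FPKM of the 12 members with the largest distance between both effects, 1 panel each with its own linear FPKM axis from 0, with 1 point per library (circle for paired-end, triangle for single-end) and a line at the group mean, ethylene-treated fruit left of control fruit on each day. In every panel both E1 points lie below both K1 points and the 3 E7 points lie above the 3 K7 points, as the choice of these 12 requires.

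Of the 8 members with the highest mean FPKM, 4 did not overlap on either day. C4D60_Mb09t12940 (chromosome 9, 9469226 to 9473754) had 75.6 and 82.8 FPKM in E1 against 135 and 118 FPKM in K1, and 94.8, 102 and 108 FPKM in E7 against 58.5, 58.6 and 63.4 FPKM in K7. C4D60_Mb09t01780 (chromosome 9, 1497224 to 1504120) had 41.7 and 38.3 FPKM in E1 against 60.1 and 62.6 FPKM in K1, and 115, 138 and 103 FPKM in E7 against 45.3, 63.6 and 67.3 FPKM in K7. Libraries of a group lay close together in both, with E1 minus K1 at -0.66 (SE 0.158) and -0.61 (SE 0.220) and E7 minus K7 at 0.75 (SE 0.129) and 1.02 (SE 0.179). K7 minus K1 was -1.06 in the first and -0.08 in the second.

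In Mba09_g08560.v1.1 (chromosome 9, 6228004 to 6228699) the values were 89.2 and 78.4 FPKM in E1 against 192 and 101 FPKM in K1, and 214, 165 and 163 FPKM in E7 against 80.9, 107 and 133 FPKM in K7. The region on chromosome 7 from 36002766 to 36015200 had 41.2 and 62.3 FPKM in E1 against 110 and 97.2 FPKM in K1, and 81.4, 81.0 and 85.2 FPKM in E7 against 59.4, 35.9 and 71.4 FPKM in K7. The groups did not overlap in either of these, though the K7 libraries spread widely.

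The other 4 of the highest members overlapped or rested on single libraries. Mba01_g10460.v1.1 (chromosome 1, 7979664 to 7983284) had the largest differences of all members, -5.02 (SE 3.78) and 3.82 (SE 3.08), and these rest on 2 libraries alone. It was listed at 0 in both E1 libraries, at 1053 FPKM in K1 A and 0 in K1 B, at 0, 3318 and 0.0605 FPKM in E7 A, B and C, and at 0.0388, 0.205 and 0 FPKM in K7 A, B and C. The high values came from assembled loci listed in those 2 libraries, and the annotated identifier held 0.0110% of the FPKM of the region.

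Mba11_g09690.v1.1 (chromosome 11, 9788607 to 9791984) had 208 and 166 FPKM in E1 against 1362 and 1504 FPKM in K1, but 357, 1010 and 1003 FPKM in E7 against 559, 115 and 1131 FPKM in K7. Its groups were apart on day 1 (E1 minus K1 -2.94, SE 0.867) and overlapped on day 7 (E7 minus K7 0.77, SE 0.708). Mba09_g18770.v1.1 (chromosome 9, 21759222 to 21771160) had 62.4 and 158 FPKM in E1 against 86.2 and 233 FPKM in K1, and 76.2, 216 and 231 FPKM in E7 against 79.3, 99.7 and 159 FPKM in K7. The region on chromosome 7 from 31679472 to 31691493 had 76.0 and 146 FPKM in E1 against 161 and 167 FPKM in K1, and 164, 270 and 43.4 FPKM in E7 against 25.8, 121 and 172 FPKM in K7. The spread within groups was as wide as the differences between them in these last regions, on both days in the first and on day 7 in the second. In the second the E1 libraries also lay wide apart on day 1, though both were below K1.

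In 13 members an annotated identifier was listed in all 10 tables, 6.91% of members beside 2.98% of all regions. In 9 of these the identifier held 100% of the FPKM of its region, so that the values are those of 1 gene model, and in the other 4, Mba01_g10460.v1.1 and Mba04_g29640.v1.1 among them, other loci carried most of the sum. Besides Mba07_g18990.v1.1, the 9 included Mba04_g32200.v1.1 (chromosome 4, 37151615 to 37152316), with 0.526 and 0.239 FPKM in E1 against 1.43 and 4.41 FPKM in K1, and 4.19, 4.60 and 4.93 FPKM in E7 against 0, 0.599 and 1.13 FPKM in K7. Mba11_g06820.v1.1 (chromosome 11, 6295245 to 6295556) had 1.13 and 1.25 FPKM in E1 against 8.86 and 4.55 FPKM in K1, and 7.76, 5.93 and 4.15 FPKM in E7 against 4.06, 2.83 and 2.54 FPKM in K7. By their values both were apart on both days, although E7 C came within a small margin of K7 A in the second. The confidence bounds overlapped on day 1 in the first (E1 A up to 1.05, K1 A from 0.977 FPKM). In the second they overlapped on both days (E1 C up to 2.51, K1 B from 2.18, and E7 C from 1.93, K7 A up to 5.98 FPKM).

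Another 3 of the 9 were apart on day 7 by their values, at low levels. Mba05_g20270.v1.1 (chromosome 5, 32796542 to 32797756) had 0 and 0.391 FPKM in E1 against 0.321 and 1.44 FPKM in K1, and 3.69, 4.66 and 3.69 FPKM in E7 against 0.383, 0.264 and 1.03 FPKM in K7. Mba08_g13610.v1.1 (chromosome 8, 11460193 to 11461149) had 1.56 and 0.646 FPKM in E1 against 3.03 and 5.06 FPKM in K1, and 1.97, 2.57 and 2.07 FPKM in E7 against 0.291, 0.992 and 0.891 FPKM in K7. Mba06_g27870.v1.1 (chromosome 6, 33628180 to 33628680) had 0.616 and 0.406 FPKM in E1 against 2.03 and 3.14 FPKM in K1, and 1.75, 1.99 and 1.59 FPKM in E7 against 0.879, 1.26 and 0 FPKM in K7. On day 1 the E1 and K1 libraries overlapped in Mba05_g20270.v1.1 alone of these.

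The members tended to be low. Their mean FPKM over the 10 libraries ran from 1.08 to 741 with a median of 5.35, beside 9.04 over all regions, and 91 of the 188 were under 5 FPKM. Members were 2.14% of the regions with a mean of 1 to 2 FPKM (36 of 1679), 1.54% at 2 to 5 FPKM, 1.01% at 5 to 10 FPKM, 0.709% at 10 to 50 FPKM (47 of 6631) and 1.02% at 50 FPKM or more. At 1 to 2 FPKM there were 36 members against 5 regions of the mirror pattern, at 2 to 5 FPKM 55 against 17, at 5 to 10 FPKM 38 against 30 and at 10 to 50 FPKM 47 against 47. From 50 FPKM up there were 12 against 6. Most of the surplus of members over their mirror thus lay under 5 FPKM. The share of members without overlap on both days was 58.3%, 45.5%, 52.6%, 55.3% and 50% at these 5 levels, from the lowest to the highest. The bounds implied a median of 142 fragments for a member in a library, 139 members had at least 10 in every library, and 18 members were listed at 0 in at least 1 library.

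Members were also shorter than the rest of the table, with a median length of 4765 bp beside 6790 bp over all regions, 6940 bp for those that met the day 1 condition and 5585 bp for those that met the day 7 condition. An annotated identifier was listed in 84 members (44.7%), beside 34.5% of all regions, 31.8% of those that met the day 1 condition and 46.3% of those that met the day 7 condition. Genes listed only under the name of an assembled locus are not counted here, so the others need not lack a gene. In this the members were closer to the regions that met the day 7 condition. On the 9 chromosomes where the RefSeq gene models occupy the same spans as the tables, 103 of 153 members (67.3%) held 1 gene model and 46 (30.1%) held several, beside 71.5% and 25.2% of all regions.

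The members were spread over the genome. They made up from 0.783% of the regions of chromosome 2 (9 members) to 1.84% of those of chromosome 3 (21 members), and 7 lay on unplaced scaffolds. Only C4D60_Mb09t01780 and Mba09_g01790.v1.1 were neighbours on the chromosome, 3133 bp apart, so that 1.06% of members had another member next to them, beside 2.18% of all regions with a member next to them.

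How far the pattern belongs to 1 transcript depends on the loci in a region. In 67 members (35.6%, beside 27.3% of all regions) every table had 1 locus, and in 121 some table had several. In the 67, the confidence bounds of all E1 libraries lay below those of all K1 libraries in 39 (58.2%, beside 33.6% of all regions with 1 locus). The bounds of E7 lay above those of K7 in 27 (40.3%, beside 13.4%), and both held for 22 (32.8%, beside 0.522%). The rule chose members by the same FPKM and makes such shares likely, so nothing is read from them. The bounds describe each library by itself and not the spread between libraries. The strongest locus of each library shared a common stretch over the 10 tables in 156 members (83.0%), beside 89.1% of all regions. In the other members the sums of the 10 libraries were led by loci in different places. Of 20 members with several loci that also held a locus at the same coordinates in all tables, such a locus by itself met both thresholds in 4.

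Some members lay next to the thresholds. Just inside on day 1 were Mba00_g07350.v1.1 (-0.501) and Mba09_g18770.v1.1 (-0.507), and just outside were the region on chromosome 7 from 1560142 to 1570347 (-0.499) and Mba08_g12840.v1.1 (-0.498). Just inside on day 7 were C4D60_Mb08t14250 (0.50) and Mba03_g16990.v1.1 (0.502), and just outside were C4D60_Mb08t07820 (0.499) and C4D60_Mb05t09690 (0.494). The distance from a threshold was smaller than the spread between libraries in a typical member, whose SD was 22.5% of the mean in E1, 30.9% in K1, 27.0% in E7 and 36.1% in K7 (medians).

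Membership moved with single libraries. Of the 188 members, 59 met both thresholds in all 10 fits that each left out 1 library, and 54 of these were among the 98 without overlap. Of the 12 described by library, 11 were kept in all 10 fits, and Mba04_g13110.v1.1 in 9. The number of members found was 167 without E7 A, of which 140 were members before, and 281 without E7 B, of which 166 were. The 7 paired-end libraries alone, with 1 library left in K1, gave 169 members, of which 107 were members before, and 180 regions of the mirror pattern. Without the 3 single-end libraries, 81 of the 188 thus did not meet the rule. That fit also has fewer libraries, so layout and the number of libraries cannot be told apart in it. With layout as a term in the fit of all 10 libraries, 160 of the 188 met the rule.

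The scaling of the libraries mattered as well. FPKM divides by the total of each library, and with median-of-ratios scaling the median E1 minus K1 of all regions was -0.03 in place of -0.24. With it, 166 regions were members, 134 of them members before, and the mirror pattern was met by 121. Quantile normalization gave 149 members, 129 of them members before, and 175 regions of the mirror pattern, so that members outnumbered their mirror under the first scaling and not under the second. They did not outnumber it in the paired-end libraries alone either, and without E7 A there were 167 members against 164 regions of the mirror pattern.

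**Figure D5:**
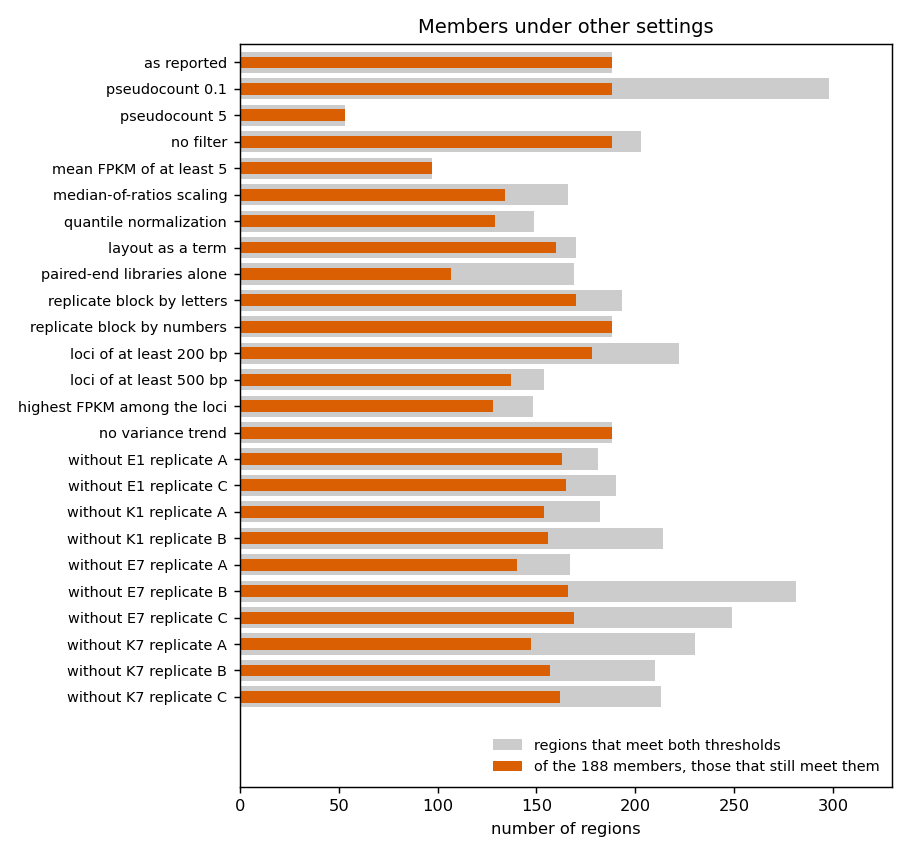
Number of regions that met the rule under each processing setting, with the part that were among the 188 members marked. The number runs from 53 with a pseudocount of 5 to 298 with a pseudocount of 0.1, and the part shared with the 188 is lowest for the pseudocount of 5 (53), for regions of at least 5 FPKM (97) and for the paired-end libraries alone (107).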

How the data were processed

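Pulp RNA of 10 libraries (2 E1, 2 K1, 3 E7, 3 K7) was sequenced on an Illumina HiSeq instrument. Per the labels and the study's methods, the authors checked reads with FastQC 0.11.8, trimmed them with Trimmomatic 0.38.0, mapped them with TopHat to the DH PKW genome and assembled and quantified transcripts with Cufflinks (2.2.2.1 per the labels). The deposited values are FPKM per assembled or annotated locus, 1 table per library, with confidence bounds. They are not counts, the tables hold no read depth, and the sources used here do not give strand or the treatment of multi-mapped reads, so overlapping or antisense transcripts and near-identical copies cannot be told apart. Because loci were assembled per library, coordinates differ between tables.

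Loci of at least 300 bp were merged over the tables and their FPKM added up, and values were taken as log2(FPKM + 1), which understates the change of low regions. Positions are 1-based in the build of the tables. Group means were fitted with limma 3.58.1 in R 4.3.3 (4 groups, variance trend, two-sided, Benjamini-Hochberg adjustment over 16821 regions, adjusted p 0.05). SEs come from this fit. The fit was tested on simulated data with normal noise, in which 200 of the 16821 regions were changed by 2 on the log2 scale. It recovered 78.5% of them for day 1, 88.5% for day 7 and 59.5% for the difference between both effects. The changed regions were not drawn from the lowest levels, and the change was larger than the median differences of the members. The simulation therefore does not cover low members or small differences. Fragments were estimated from the bounds.

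The members and all lists were chosen with earlier results of these data known. Named were the 12 members without overlap on both days with the largest difference between both effects, the 8 with the highest mean FPKM, those next to the thresholds, and up to 8 with an identifier listed in all tables. C4D60_Mb04t27270, Mba08_g09600.v1.1, C4D60_Mb05t23190 and the neighbouring pair were named after their values were seen. Planned lists by gene product and searches of promoters and proteins were not run, since no product or sequence was at hand. RefSeq locus tags (assembly BananaB_V1) were used for names only. 24 other settings were tried, among them other pseudocounts, filters, scalings, lengths, layout, replicate blocks and leaving out each library.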

Additional observations from a re-analysis of the deposited data

Results flagged for a closer look

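The effect of ethylene differed between the days in 109 of the 188 members by limma's test of the difference itself (58.0%, beside 8.31% of all 16821 regions). The rule that chose the members asks for a difference of at least 1 between both effects, so this count is a description of the choice and nothing is read from it. No group of 4 or more libraries was there to be searched for a single library that stands apart.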

How the results depend on the processing

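The rule found 188 members, and 86, 57, 109, 85 and 40 of them were called for ethylene on day 1, ethylene on day 7, the difference between both, E7 over E1 and K7 under K1. Over all regions the shares called were 24.8%, 8.75%, 8.31%, 14.3% and 1.05%. With a pseudocount of 0.1 it found 298. With a pseudocount of 5 it found 53, with 35, 28, 39, 23 and 23 called, beside 23.1%, 8.5%, 6.6%, 11.5% and 1.1% of all regions. With regions of at least 5 FPKM it found 97, with 46, 27, 55, 36 and 22 called, beside 24.1%, 9.46%, 8.7%, 14.9% and 0.96% of those regions. K7 under K1 was called for 22 members in the paired-end libraries alone. Leaving out 1 library at a time gave 167 to 281 members, with 53 (without E1 A; 55 without E1 C) to 119 called on day 1, 37 (without E7 B) to 70 on day 7, 66 (without E1 C; 67 without E1 A) to 128 for the difference, 49 (without E1 A; 51 without E1 C) to 112 for E7 over E1 and 26 (without K1 B) to 37 for K7 under K1. Libraries left alone in a group were assumed to vary like the others. The remaining settings kept these counts within 1.5 times, but not all of the 188 members met the rule under each of them. With the highest FPKM among the loci of a region in place of their sum, the rule found 148, of which 128 were among the 188. With loci of at least 500 bp it found 154, of which 137 were, and with loci of at least 200 bp 222, of which 178 were. Membership thus depended in part on how the loci of a region were combined.

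Of the values of named members, 1062 stayed within the spread between libraries, 106 moved further and 6 changed sign. E7 minus K7 of the region on chromosome 7 from 31679472 was -0.40 in the paired-end libraries alone and ran from -0.21 (without K7 A) to 1.35 (without E7 C) with 1 library left out. In the same way E1 minus K1 of Mba09_g18770.v1.1 ran from -1.22 (without K1 A) to 0.20 (without K1 B) and was 0.16 without E1 A. E7 minus K7 of Mba11_g09690.v1.1 ran from -0.16 (without K7 B) to 1.49 (without K7 C), and E7 minus K7 of Mba01_g10460.v1.1 ran from -0.066 (without E7 B) to 5.78 (without E7 A). The causes were not tested.

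The replicate letters are shared between E7 and K7. The same-letter libraries correlated at 0.332, 0.0310 and 0.118 in their deviations (letters A, B and C). This was above the 0.1 asked for A and C and under it for B. Of the pairs with different letters on day 7, E7 B with K7 C (0.197) and E7 C with K7 B (0.102) were above 0.1 too. The others ran from -0.258 to -0.107. On day 1, E1 A with K1 A was at -0.0308. Both A libraries of day 7 are also single-end. So few libraries cannot settle whether a letter marks a shared fruit or batch, and the sources used here do not say. The main fit therefore used no pairing. With the replicate block by letters the rule found 193 members. With the block by replicate number it found 188, and K7 under K1 was called for 26, beside 0.606% of all regions.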
